A study of Mus musculus with 6 samples.

Results

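The genes described here are 31 genes of hepatic stellate cells and the extracellular matrix, followed in mouse livers with a small Maf knockout. They were taken from a fixed list of symbols, and each was read by the probe whose transcript accession maps to that symbol. Where several probes map to a gene, the brightest on average was used. Of the 31 genes, 29 had such a probe and were tested, among 21059 genes and transcripts in all. Col6a3 and Lox had no probe matched by accession and were not analysed here. The study compared 3 sMaf CKO livers, in which small Maf was knocked out specifically in the liver, with 3 livers of control wild type mice. Both groups were 5 weeks old, and their mixed strain background drew on 129Sv/J, C57BL/6J and ICR. The driver of the deletion, the small Maf genes deleted and the sex of the mice are not given in the sources used here. Each RNA sample was hybridised to its own single-colour Agilent array.

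Hepatic stellate cells lie between hepatocytes and the sinusoidal endothelium and store vitamin A as retinyl esters in their quiescent state. In an injured liver they become contractile myofibroblasts that lay down fibrillar collagen, driven in large part by transforming growth factor beta and platelet-derived growth factor. Other liver cells add to the matrix too, with type IV collagen from endothelium, plasma fibronectin from hepatocytes and elastic fibres from portal fibroblasts. Small Maf proteins are DNA-binding partners of the CNC and Bach factors.

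The 75th percentile of the processed signal, which scales each array, was 484 to 961 in sMaf CKO and 483 to 609 in control livers, with 58.7% to 73.6% and 58.0% to 69.7% of probes well above background. A relative signal is the processed signal divided by that percentile, and a log2 level is its logarithm. The relative signal of Mafg was 0.127, 0.0486 and 0.589 in sMaf CKO livers 1, 2 and 3, against 3.69, 3.66 and 4.68 in control livers 1, 2 and 3. Its log2 difference was -4.69 (SE 0.79, adjusted p = 0.0533), so Mafg itself missed the threshold of 0.05 used below. The other small Maf genes overlapped between the genotypes, with log2 differences of 0.15 for Maff (SE 0.51, adjusted p = 0.911) and 0.21 for Mafk (SE 0.29, adjusted p = 0.759). Livers 1 and 2 of both genotypes were on slide 1 and livers 3 of both on slide 2, so a value within slide 2 compares 1 array with 1. Xist was well above background on all 6 arrays and Ddx3y, Kdm5d and Uty on none, while Eif2s3y was so on 1 control array. The labels call the RNA samples independent, and p-values measure the spread between these 6 samples.

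The levels of 27 of the 29 genes were higher in sMaf CKO livers, as were those of 45.3% of all genes tested, yet no single gene of the 29 passed the test. The median log2 difference over the 29 genes was 0.43, against -0.05 over all genes tested. With limma over all genes and a Benjamini-Hochberg adjusted p under 0.05, 0 of the 29 were called in either direction, beside 0.385% of all genes called higher and 0.157% called lower (0.541% in all). At an unadjusted p under 0.05, 10 of the 29 were higher and 0 lower, beside 8.71% and 8.1% of all genes. The 3 sMaf CKO arrays lay above all control arrays for 12 of the 29 genes, beside 11.3% of all genes, and below them for 0, beside 11.6%. Whether more cells of a type or more RNA per cell lies behind a higher level cannot be told apart in whole liver. Slide 1 alone gave a median of 0.48 and slide 2 alone one of 0.52. With slide as a block 0 of the 29 were called, beside 0.992% of all genes called higher and 0.622% called lower (1.61% in all).

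**Figure D1:**
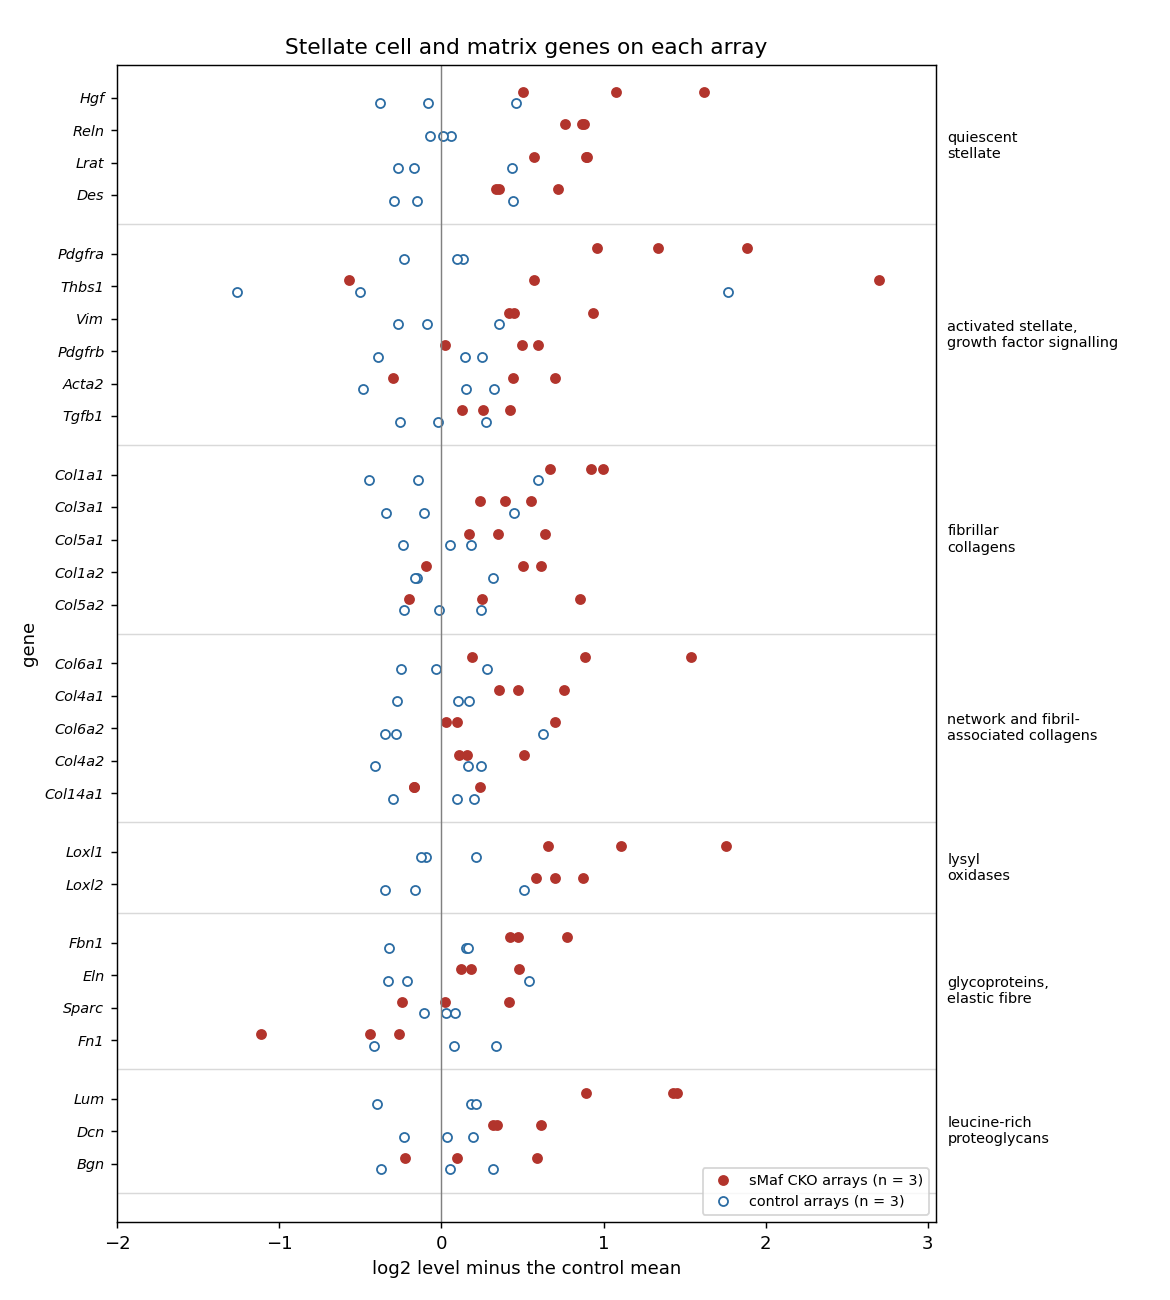
Log2 level of the 29 measured genes on each array, minus the mean of the 3 control arrays, with genes in rows by role and filled points for sMaf CKO arrays and open points for control arrays. For 12 genes, among them Reln, Pdgfra, Lum and Loxl1, all sMaf CKO points lie to the right of all control points, and all sMaf CKO points of Fn1 lie left of 0.

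The arrays did not contribute alike. On sMaf CKO array 1, 23 of the 29 genes were above all control arrays, on array 2 it was 19 and on array 3 it was 15, while over all genes these shares were 28.8%, 25.7% and 33.5%. Array 1 of sMaf CKO was the highest of the 6 arrays for 19 of the 29 genes, beside 18.5% of all genes, and it also had the highest 75th percentile of signal. Among the controls, array 2 was the highest of the 3 for 15 genes, beside 30% of all genes, and array 3 the lowest of all 6 arrays for 18, beside 15.5%. The part that signal level or the remaining Mafg signal of an array has in these values was not tested.

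Promoter sequence was available for 19 of the 31 genes, as the 250 bases before a RefSeq start on GRCm38.p6. Of 21 such windows, 2 held the core of the antioxidant response element (TGACNNNGC), which CNC factors with small Maf proteins bind, or 9.52%, against 10.2% of 32841 windows of all genes. The AP-1 site TGANTCA was in 1 (4.76% against 6.75%), the Smad-binding sequence CAGACA in 5 (23.8% against 17.1%), the GC box GGGCGG in 11 (52.4% against 32.7%) and the TATA box TATAAA in 2 (9.52% against 12.4%). Both strands were searched, and the antioxidant core can overlap the GC box. Shown are the windows of the stellate genes Reln, Lrat, Hgf and Pdgfra, whose levels are described next, and of Col6a1 and Col6a2, which hold the AP-1 match and an antioxidant core. Capitals mark matches to any of the 5 motifs on either strand.
Reln, chr5:22344706-22344955, minus strand: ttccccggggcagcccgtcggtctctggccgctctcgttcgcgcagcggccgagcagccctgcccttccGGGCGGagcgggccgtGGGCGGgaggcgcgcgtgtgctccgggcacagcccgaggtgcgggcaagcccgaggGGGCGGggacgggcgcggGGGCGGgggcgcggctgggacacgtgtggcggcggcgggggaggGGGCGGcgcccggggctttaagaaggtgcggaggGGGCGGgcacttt
Lrat, chr3:82903975-82904224, minus strand: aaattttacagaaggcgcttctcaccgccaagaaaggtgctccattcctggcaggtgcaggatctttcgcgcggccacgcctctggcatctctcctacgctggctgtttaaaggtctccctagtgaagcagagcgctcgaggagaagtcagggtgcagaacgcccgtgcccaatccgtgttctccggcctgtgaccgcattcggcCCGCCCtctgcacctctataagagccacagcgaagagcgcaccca
Hgf, chr5:16553245-16553494, plus strand: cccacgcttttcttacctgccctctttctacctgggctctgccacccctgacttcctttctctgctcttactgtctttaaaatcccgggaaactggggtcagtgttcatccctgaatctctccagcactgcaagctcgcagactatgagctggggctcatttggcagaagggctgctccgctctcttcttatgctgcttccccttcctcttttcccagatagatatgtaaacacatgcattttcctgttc
Pdgfra, chr5:75152001-75152250, plus strand: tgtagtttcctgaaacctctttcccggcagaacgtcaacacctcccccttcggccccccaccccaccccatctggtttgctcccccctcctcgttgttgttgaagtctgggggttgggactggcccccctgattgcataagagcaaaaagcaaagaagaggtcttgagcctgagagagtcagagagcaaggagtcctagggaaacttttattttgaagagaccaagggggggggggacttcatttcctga
Col6a1, chr10:76726045-76726294, minus strand: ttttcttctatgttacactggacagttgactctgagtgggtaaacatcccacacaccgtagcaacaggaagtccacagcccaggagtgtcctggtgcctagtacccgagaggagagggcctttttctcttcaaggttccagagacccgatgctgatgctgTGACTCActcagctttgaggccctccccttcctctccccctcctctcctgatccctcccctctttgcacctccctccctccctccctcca
Col6a2, chr10:76623405-76623654, minus strand: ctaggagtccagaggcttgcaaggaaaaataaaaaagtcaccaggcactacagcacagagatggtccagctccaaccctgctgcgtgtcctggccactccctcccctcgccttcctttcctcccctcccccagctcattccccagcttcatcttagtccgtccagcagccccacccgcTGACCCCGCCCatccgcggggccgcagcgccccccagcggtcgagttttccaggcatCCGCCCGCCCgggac

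The windows of Hgf and Pdgfra held none of the 5 motifs, and that of Lrat held 1 GC box. The Reln window was 80.0% G and C, against a median of 52.4% over all windows, and held 6 GC boxes. The antioxidant core of Col6a2 overlapped a GC box. A match is a run of letters and not a measured binding site.

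Genes of quiescent stellate cells held the highest median of the roles with more than 2 measured genes. All 4 were higher in sMaf CKO liver, with log2 differences from 0.47 to 1.07 and a median of 0.81 (0.71 within slide 1 and 1.01 within slide 2). Their relative signals summed to 10.7 to 12.1 on sMaf CKO arrays and 6.36 to 6.72 on control arrays. Reln alone gave 8.66 to 9.39 of these sums on sMaf CKO arrays and 4.85 to 5.32 on control arrays. None of the 4 passed the adjusted threshold, and 3 were higher at an unadjusted p under 0.05, beside 8.71% of all genes.

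Reln encodes reelin, a secreted glycoprotein that stellate cells make in the liver. Its relative signal was 9.30, 8.66 and 9.39 in sMaf CKO livers 1, 2 and 3, against 5.32, 4.85 and 5.15 in control livers 1, 2 and 3. The values within a genotype were close and the genotypes lay well apart. Its log2 level averaged 3.19 ± 0.06 in sMaf CKO and 2.35 ± 0.07 in control livers (SD, n = 3 each), a log2 difference of 0.84 (SE 0.19, 95% interval 0.39 to 1.28, adjusted p = 0.109). Without each array in turn the difference stayed between 0.80 and 0.87.

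Lrat encodes the acyltransferase that forms retinyl esters for storage. Its relative signal was 2.01, 1.61 and 2.03 in sMaf CKO livers, against 0.967, 1.47 and 0.902 in control livers. Control liver 2 lay close to sMaf CKO liver 2, and the other control livers lay well below. The log2 difference was 0.79 (SE 0.26, 95% interval 0.18 to 1.39, adjusted p = 0.202), and 0.38 by its other probe. The genotypes overlapped on that probe, at log2 levels 0.76, 0.48 and -0.32 in sMaf CKO livers and -0.36, 0.44 and -0.29 in control livers.

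Hgf encodes hepatocyte growth factor, a mitogen for hepatocytes. It had relative signals of 0.50, 0.231 and 0.343 in sMaf CKO livers, against 0.125, 0.224 and 0.154 in control livers. The lowest sMaf CKO value barely exceeded the highest control value. The log2 difference was 1.07 (SE 0.35, 95% interval 0.25 to 1.88, adjusted p = 0.202), with 1.02 by its other probe, and its promoter window above held none of the motifs. Des encodes desmin, an intermediate filament of stellate and muscle cells, and its relative signals were 0.315, 0.245 and 0.242 in sMaf CKO livers, against 0.260, 0.173 and 0.156 in control livers. The genotypes overlapped through control liver 1, and the log2 difference was 0.47 (SE 0.27, 95% interval -0.15 to 1.09, adjusted p = 0.413).

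The genes of activated stellate cells and of growth factor signalling were led by Pdgfra, and the others differed less. The median log2 difference of the 6 was 0.49 (0.45 within slide 1 and 0.60 within slide 2). All 6 were higher, beside 45.3% of all genes, and 1 was so at an unadjusted p under 0.05, beside 8.71%. Pdgfra encodes a receptor for platelet-derived growth factor found on stellate cells and fibroblasts. Its relative signal was 0.854, 0.450 and 0.582 in sMaf CKO livers 1, 2 and 3, against 0.253, 0.247 and 0.197 in control livers 1, 2 and 3. Every sMaf CKO liver was clearly above every control liver, with sMaf CKO liver 1 the highest. The log2 difference was 1.39, or 2.63-fold (SE 0.28, 95% interval 0.73 to 2.05, adjusted p = 0.0854), and it was the highest of the 29 genes. Its adjusted p ranged from 0.0496 to 0.404 over 19 alternatives and was below the threshold in 1 of them.

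Acta2, Vim and Pdgfrb differed less than Pdgfra. Acta2, the actin of smooth muscle and activated stellate cells, had relative signals of 2.01 to 4.02 in sMaf CKO livers and 1.77 to 3.1 in control livers. The genotypes overlapped and the log2 difference was 0.28 (SE 0.34, 95% interval -0.50 to 1.07, adjusted p = 0.711), while its other 2 probes gave -0.34 and -0.09. Vim, which encodes the intermediate filament vimentin of mesenchymal and blood cells, had relative signals of 6.91 to 9.89 in sMaf CKO livers and 4.30 to 6.61 in control livers. Those ranges did not overlap, with a log2 difference of 0.60 (SE 0.26, adjusted p = 0.301). Pdgfrb, the second receptor of this growth factor, had a log2 difference of 0.37 (SE 0.27, adjusted p = 0.522). It was 0.11 on slide 1 and 0.89 on slide 2, and control liver 2 lay above sMaf CKO liver 2.

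Tgfb1 encodes the main fibrogenic cytokine of the liver, and its relative signals were 0.405 to 0.496 in sMaf CKO livers and 0.311 to 0.448 in control livers. The genotypes overlapped, with a log2 difference of 0.27 (SE 0.23, 95% interval -0.26 to 0.80, adjusted p = 0.584). Thbs1 encodes thrombospondin, a matrix protein that can release active transforming growth factor beta. Only 2 of 3 sMaf CKO and 1 of 3 control arrays had it well above background, and its log2 difference of 0.90 had an SE of 0.98 (adjusted p = 0.677; -0.06 within slide 2). At these signals its difference could not be measured closely.

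**Figure D2:**
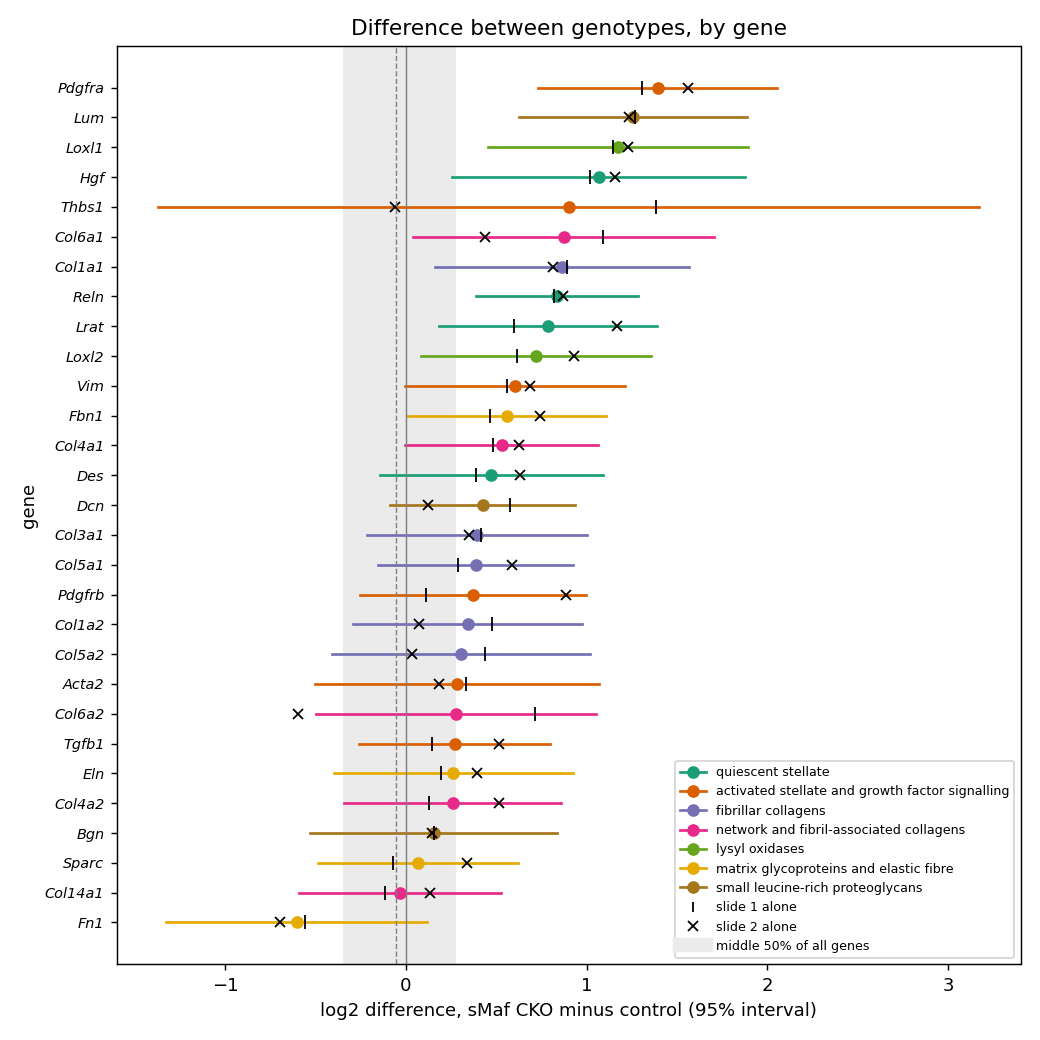
Log2 difference of sMaf CKO minus control for each of the 29 genes (points, coloured by role) with its 95% interval, the difference within slide 1 (bars) and within slide 2 (crosses), and the middle 50% of all genes as a grey band around their median of -0.05 (dashed). Pdgfra, Lum, Loxl1 and Hgf lie highest, Thbs1 has the widest interval, and Fn1 lies lowest.

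The fibrillar collagens, which form the fibres of scar tissue, were all above control on average by small amounts. Their median log2 difference was 0.39 (0.44 within slide 1 and 0.35 within slide 2). At an unadjusted p under 0.05, beside 8.71% of all genes, 1 of the 5 was higher. That gene was Col1a1, a chain of type I collagen, with relative signals of 5.42, 5.14 and 4.31 in sMaf CKO livers, against 1.98, 4.09 and 2.45 in control livers. Control liver 2 reached nearly the level of sMaf CKO liver 3. The log2 difference was 0.86 (SE 0.30, 95% interval 0.16 to 1.57, adjusted p = 0.224), with 0.69 by its other kept probe.

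Its partner chain Col1a2 differed less, with relative signals of 9.19 to 15 in sMaf CKO livers and 8.74 to 12.2 in control livers and a log2 difference of 0.34 (SE 0.27, adjusted p = 0.559). Col3a1, the chain of type III collagen, had 14.0 to 17.4 in sMaf CKO livers and 9.38 to 16.2 in control livers, a log2 difference of 0.39 (SE 0.26, adjusted p = 0.486). In both genes the genotypes overlapped because control liver 2 was the highest control. Col5a1 and Col5a2, chains of the type V collagen that helps start fibrils, had log2 differences of 0.39 (SE 0.23) and 0.30 (SE 0.31), and the second probe of Col5a1 gave -0.11.

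Among the network and fibril-associated collagens, Col6a1 had the highest log2 difference. Col6a1 and Col6a2 encode chains of the beaded-filament type VI collagen. The relative signal of Col6a1 was 1.15, 0.728 and 0.450 in sMaf CKO livers 1, 2 and 3, against 0.479, 0.385 and 0.332 in control livers 1, 2 and 3. The value of sMaf CKO liver 3 lay within the control range, and the log2 difference of 0.87 (SE 0.36, 95% interval 0.04 to 1.70, adjusted p = 0.280) was 1.09 within slide 1 and 0.44 within slide 2. Col6a2 had opposite signs on the slides, 0.71 on slide 1 and -0.60 on slide 2.

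Col4a1 and Col4a2 encode the chains of the usual type IV collagen of basement membranes. The relative signals of Col4a1 were 2.47 to 3.26 in sMaf CKO livers and 1.6 to 2.17 in control livers, ranges that did not overlap. Its log2 difference was 0.53 (SE 0.23, adjusted p = 0.302) and 0.60 by its other probe, whereas that of Col4a2 was 0.26 (SE 0.26, adjusted p = 0.646) and -0.0025 by its other probe. Col14a1, a collagen that sits on the surface of fibrils, had relative signals of 7.13 to 9.43 in sMaf CKO livers and 6.51 to 9.22 in control livers. Its log2 difference was -0.03 (SE 0.24, 95% interval -0.59 to 0.52) and was above 0 after spike-in scaling or quantile normalization.

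Loxl1 and Loxl2, lysyl oxidase-like enzymes that cross-link elastin and collagen, were both among the genes with an unadjusted p under 0.05. Loxl1 had relative signals of 0.814, 0.381 and 0.519 in sMaf CKO livers, against 0.226, 0.280 and 0.221 in control livers. Even the lowest sMaf CKO liver was above the highest control, with a log2 difference of 1.17, or 2.25-fold (SE 0.31, 95% interval 0.46 to 1.89, adjusted p = 0.144). Loxl2 had relative signals of 2.27, 2.02 and 1.86 in sMaf CKO livers, against 1.11, 1.77 and 0.976 in control livers. Control liver 2 again lay nearest to the sMaf CKO livers, and the log2 difference was 0.72 (SE 0.27, 95% interval 0.08 to 1.35, adjusted p = 0.254), with 0.44 by its other probe.

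The matrix glycoproteins had the lowest median, 0.16 (0.088 without control array 1), with genes on both sides of 0. Fn1 encodes fibronectin, of which hepatocytes secrete the plasma form. Its relative signal was 23.0, 20.4 and 12.8 in sMaf CKO livers 1, 2 and 3, against 34.9, 29.1 and 20.7 in control livers 1, 2 and 3. The lowest value was that of sMaf CKO liver 3 and the highest that of control liver 1, and the ranges overlapped through control liver 3. The log2 difference was -0.60 (SE 0.31, 95% interval -1.33 to 0.12, adjusted p = 0.375). It was -0.56 within slide 1 and -0.70 within slide 2, and the other probes of Fn1 gave -0.89 and -0.19. Beside Fn1, the levels of all 8 measured hepatocyte markers were below control in sMaf CKO livers, while 45.3% of all genes were above. The median log2 difference of these markers was -0.51. It was only -0.20 under quantile normalization, -0.18 under spike-in scaling and -0.19 within slide 2, where Ttr and Fgb were above 0. The part that the lower marker levels have in the Fn1 value was not tested.

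Fbn1 encodes fibrillin, the scaffold of elastic microfibrils, and its relative signals were 0.371, 0.30 and 0.290 in sMaf CKO livers, against 0.241, 0.243 and 0.173 in control livers. The ranges did not overlap, and the log2 difference was 0.56 (SE 0.24, 95% interval 0.01 to 1.11, adjusted p = 0.290). Eln, which encodes elastin itself, had a log2 difference of 0.26 (SE 0.28, adjusted p = 0.677), and its brightest array was that of control liver 2. Sparc, a collagen-binding protein of stellate and endothelial cells, had bright relative signals of 27.3 to 43.1 in sMaf CKO livers and 29.9 to 34.2 in control livers. Its log2 difference was 0.07 (SE 0.24, 95% interval -0.49 to 0.62, adjusted p = 0.915), and -0.10 by its other probe.

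Of the small leucine-rich proteoglycans, which coat collagen fibrils, Lum differed most. Lum encodes lumican, and its relative signal was 12.0, 8.30 and 12.2 in sMaf CKO livers 1, 2 and 3, against 3.40, 5.07 and 5.20 in control livers 1, 2 and 3. Every sMaf CKO liver was above every control liver. The log2 difference was 1.26, or 2.39-fold (SE 0.27, 95% interval 0.62 to 1.89, adjusted p = 0.0937), with 1.27 within slide 1 and 1.23 within slide 2. Its adjusted p ranged from 0.0444 to 0.396 over 19 alternatives and was below the threshold in 1 of them. Dcn, which encodes decorin, had relative signals of 88.3 to 109 in sMaf CKO livers and 60.4 to 81.1 in control livers. These ranges did not overlap, yet the log2 difference was small at 0.43 (SE 0.22, adjusted p = 0.379), and on slide 2 it was 0.12 against 0.58 on slide 1. Bgn, which encodes biglycan, differed by 0.15 (SE 0.29, adjusted p = 0.826) with overlapping genotypes.

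**Figure D3:**
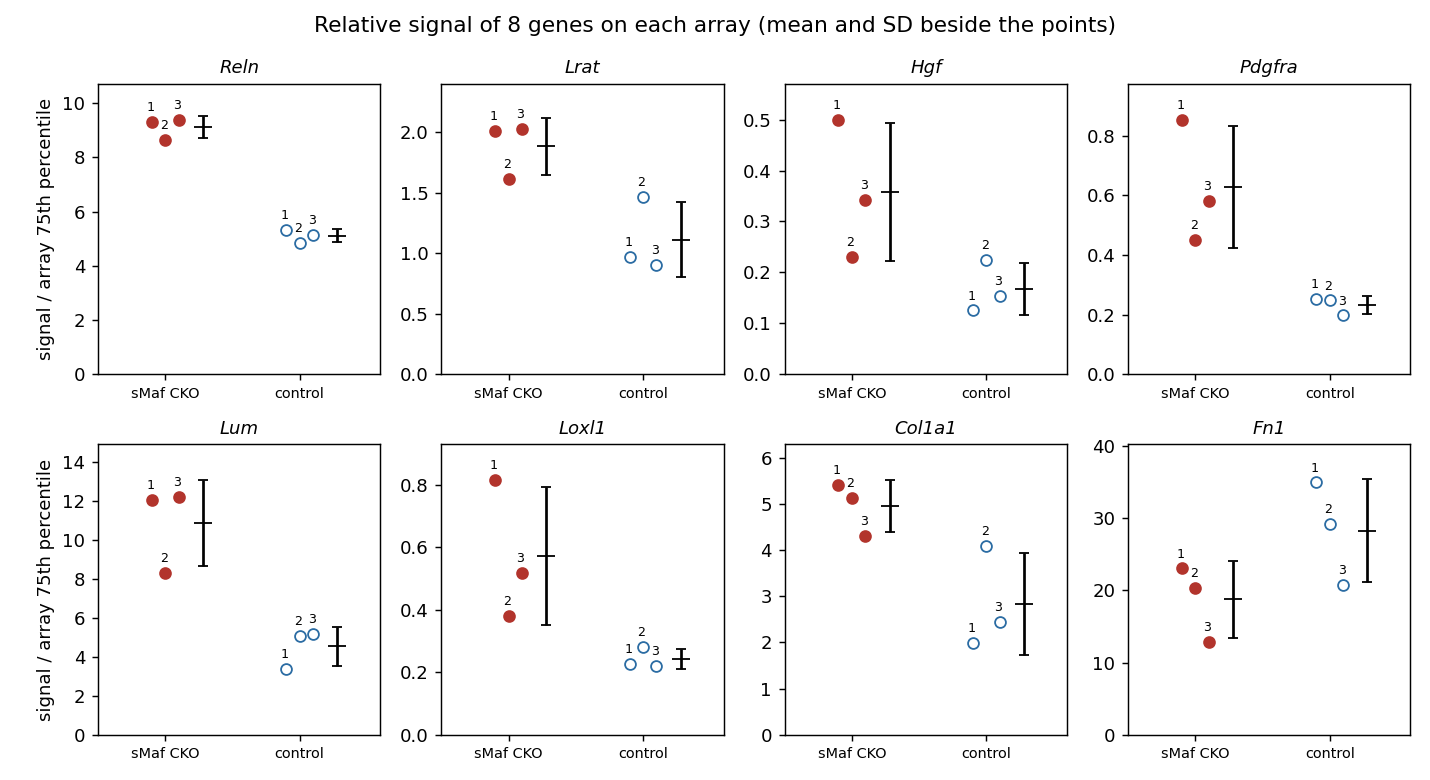
Relative signal (processed signal over the array's 75th percentile) of 8 genes on each array, numbered by liver, with sMaf CKO left of control and the mean and SD of 3 arrays beside the points. Reln, Pdgfra, Loxl1 and Lum lie further apart between the genotypes, control liver 2 lies close to the sMaf CKO livers for Lrat, Hgf and Col1a1, and Fn1 runs the other way.

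Compared by role, the quiescent stellate genes had a median log2 difference of 0.81, the activated and signalling genes 0.49 and the 19 measured matrix genes 0.39. Of the matrix genes, 17 were higher and 2 lower, while 45.3% of all genes were higher. At an unadjusted p under 0.05, 6 matrix genes were higher and 0 lower, beside 8.71% and 8.1% of all genes. On the 3 sMaf CKO arrays, the mean log2 difference from the control means was 1.02, 0.55 and 0.80 for the quiescent genes, 1.21, 0.43 and 0.27 for the activated genes and 0.65, 0.41 and 0.24 for the matrix genes. The quiescent genes held above 0.5 on each sMaf CKO array, whereas the activated genes did so on array 1 alone. The activated mean includes the dim Thbs1, at log2 levels of -3.52, -5.65 and -6.79 on these arrays against a control mean of -6.22. Thbs1 thus adds to the fall from array 1 to array 3. With only probes well above background on all 6 arrays, which leaves Thbs1 out, the activated median was 0.37. Without sMaf CKO array 1 the median of the activated genes was 0.23, against 0.75 to 0.90 for the quiescent genes without each array in turn. No test compared the roles with each other.

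For 13 genes several probes were kept, and in 9 of these all probes had differences of 1 sign. The exceptions were Acta2, Col4a2, Col5a1 and Sparc.

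Of 108 measured genes next to these in the pathway, 2 were called higher and 0 lower, beside 0.385% and 0.157% of all genes. Among 24 measured genes of transforming growth factor beta and platelet-derived growth factor signalling, 1 rose and 0 fell, beside the same shares. Their median log2 difference was 0.58. At an unadjusted p under 0.05, 10 were higher and 0 lower, beside 8.71% and 8.1% of all genes. The gene that rose was Pdgfa, a ligand of the receptor encoded by Pdgfra. Its relative signal was 17.7, 15.1 and 20.4 in sMaf CKO livers, against 5.30, 5.58 and 6.71 in control livers. The genotypes lay far apart, with a log2 difference of 1.59, or 3.02-fold (SE 0.22, adjusted p = 0.0394). Pdgfc, another ligand of that receptor, differed by 1.65 (SE 0.33, adjusted p = 0.0809). Ccn2, the connective tissue growth factor, differed by 0.79 (SE 0.47, adjusted p = 0.440).

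Among 14 other stellate genes 1 rose and 0 fell, beside 0.385% and 0.157% of all genes. Their median log2 difference was 0.30 (0.11 within slide 1). The gene that rose was Cygb, which encodes cytoglobin, a haem protein of stellate cells. Its relative signal was 3.39, 2.50 and 3.81 in sMaf CKO livers, against 1.08, 0.906 and 0.971 in control livers. No array came near the other genotype, and the log2 difference was 1.69, or 3.24-fold (SE 0.24, adjusted p = 0.0394). Lhx2, a transcription factor that keeps stellate cells quiescent in mice, differed by 0.65 (SE 0.21, adjusted p = 0.205). The collectin gene Colec11 differed by 0.06 (SE 0.26, adjusted p = 0.929), and 5 of the 14 were lower. At an unadjusted p under 0.05, 4 of the 14 were higher and 1 lower, beside 8.71% and 8.1% of all genes. The lower one was Gfap, an intermediate filament gene of stellate cells and astrocytes, at -0.81 (SE 0.29, adjusted p = 0.231), with no overlap between the genotypes but well above background on 1 of 3 sMaf CKO and 2 of 3 control arrays. The calls of Cygb and Pdgfa were each kept in 1 of 6 fits without an array, the one without sMaf CKO array 3, with adjusted p of 0.0408 to 0.160 for Cygb and 0.0421 to 0.161 for Pdgfa, and the log2 differences over all alternatives were 1.52 to 2.03 and 1.43 to 1.92.

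In the other lists 0 genes passed. The 8 measured myofibroblast and contractile genes had a median log2 difference of 0.45, with Lgals1, the galectin gene, at 1.62 (SE 0.27, adjusted p = 0.0525, and 0.0320 with slide as a block) and S100a6 at 0.81 (adjusted p = 0.207). Tagln, a contractile protein gene, differed by -0.14 (adjusted p = 0.883). The 29 other matrix proteins had a median of 0.38, with the microfibril gene Mfap2 at 1.42 (adjusted p = 0.0957) and the basement membrane gene Nid1 at 1.26 (adjusted p = 0.0978). Of these other matrix proteins 21 were higher and 8 lower. The 19 genes of collagen processing had a median of 0.38, which was 0.15 under normexp correction, with Serpinh1, the collagen chaperone, at 0.62 (adjusted p = 0.219) and Pcolce2 at 0.80 (adjusted p = 0.229). Of these 19 genes 6 were lower, among them Bmp1, a procollagen protease, at -0.60 (adjusted p = 0.329) and P4hb, a prolyl hydroxylase subunit, at -0.43 (adjusted p = 0.395). The 14 matrix receptor genes had a median of 0.03, with the integrin gene Itga5 at 0.87 (adjusted p = 0.207) and Itga8 at 0.78 (adjusted p = 0.273). Of these receptor genes 7 were higher and 7 lower. At an unadjusted p under 0.05, these 4 lists held 2, 8, 2 and 3 genes with a higher level, in the order given, and 0 with a lower one, beside 8.71% of all genes higher and 8.1% lower.

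Markers of other cells were measured beside these genes. Higher levels in sMaf CKO livers, found for 45.3% of all genes, were seen for all 10 measured macrophage markers. Their median log2 difference was 0.79, with summed relative signals of 86.4 to 132 on sMaf CKO arrays and 45.4 to 84.1 on control arrays. Of them Trem2, at 4.18 (SE 0.34, adjusted p = 0.0105), rose. Its relative signals in control livers were only 0.049, 0.068 and 0.038, well above background on 2 of 3 control arrays. The size of its difference therefore rests on dim control values. Gpnmb was well above background on all 3 sMaf CKO arrays and on 0 of 3 control arrays, so it was measured only where it was high, and its call (adjusted p = 0.0117) is not read as support. The 5 Kupffer cell markers had a median of 0.82 (169 to 390 against 70.3 to 113), with Marco at 3.73 (adjusted p = 0.0859) and Cd5l at 0.88 (adjusted p = 0.173). The 6 measured portal fibroblast markers had a median of 0.63, with sums of 7.13 to 11 in sMaf CKO and 4.22 to 4.60 in control livers. Entpd2 differed by 1.36 (adjusted p = 0.0746) and alone gave 4.49 to 7.46 of these sums in sMaf CKO and 2.06 to 2.69 in control livers. Pi16 differed by 0.72 (adjusted p = 0.307), while Clec3b (-0.75, adjusted p = 0.371) and Dpt (-0.29, adjusted p = 0.742) were lower, and Gli1 was not well above background on any array.

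The endothelial list had 4 of 10 markers higher, beside 45.3% of all genes. Its median log2 difference was -0.16 and was positive under spike-in scaling, with sums of 69.0 to 78.1 in sMaf CKO and 76.7 to 94.6 in control livers. Kdr differed by -0.56 (adjusted p = 0.380) and Stab2 by -0.46 (adjusted p = 0.424). The 5 smooth muscle markers had a median of -0.11, positive under normexp correction and spike-in scaling, with sums of 1.61 to 2.42 in sMaf CKO and 1.96 to 2.66 in control livers. Myh11 differed by -0.76 (adjusted p = 0.327) and Smtn by 0.53 (adjusted p = 0.413). The 7 cholangiocyte markers had a median of 0.30, with sums of 11.4 to 50.2 in sMaf CKO and 9.92 to 12.3 in control livers. Spp1 alone gave 47.8, 9.80 and 15.6 of these sums in sMaf CKO livers 1, 2 and 3, and 7.96 to 10.7 in control livers. Epcam differed by 0.89 (adjusted p = 0.235) and Spp1 by 1.03 (adjusted p = 0.380).

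The 6 mesothelial markers had a median of 0.01, negative under median scaling, with sums of 1.22 to 2.08 in sMaf CKO and 1.18 to 1.74 in control livers, Wt1 at 1.90 (adjusted p = 0.0986) and Upk1b at 0.22 (adjusted p = 0.700). The 5 platelet markers had a median of -0.61 (-0.21 under normexp correction), with Gp1bb at -0.73 (adjusted p = 0.264) and Ppbp at -1.29 (adjusted p = 0.520). The 4 erythroid markers had a median of 0.30, with Alas2 at 0.77 (adjusted p = 0.417) and Slc4a1 at 0.75 (adjusted p = 0.717), and the 6 lymphocyte markers one of 0.18, with Cd3e at -0.47 (adjusted p = 0.594) and Cd3d at 0.58 (adjusted p = 0.667). Of 8 hepatocyte markers Tdo2, a tryptophan-degrading enzyme, fell by 1.86 on the log2 scale (adjusted p = 0.0382), and the list summed to 1331 to 2237 in sMaf CKO and 1986 to 2471 in control livers. The part of these cell types in the values of the stellate and matrix genes was not tested.

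**Figure D4:**
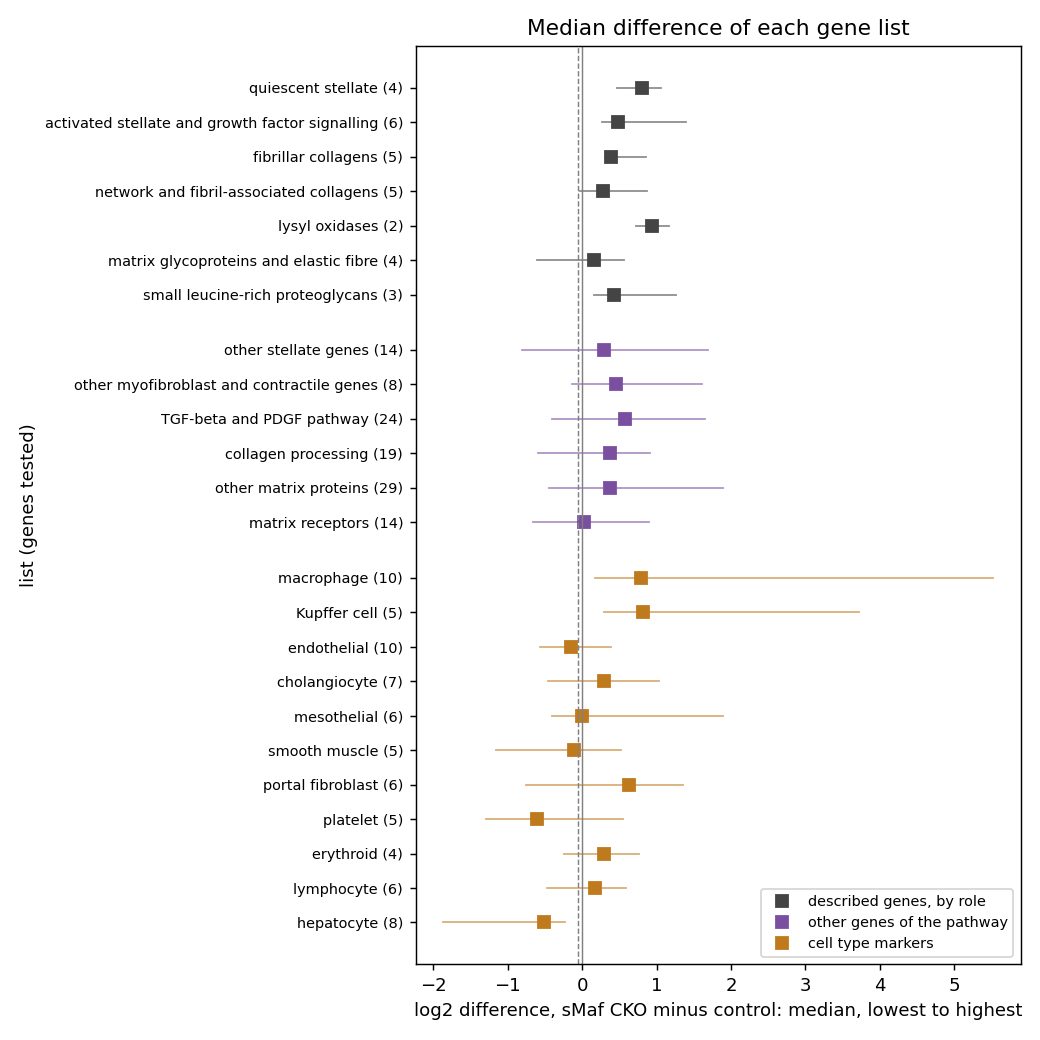
Median log2 difference of sMaf CKO minus control (squares) and the lowest to highest gene (lines) for each role, for the other genes of the pathway and for the cell type markers, with the number of genes tested in brackets and the median of all genes, -0.05, as a dashed line. Quiescent stellate genes and lysyl oxidases lie highest among the roles, macrophage and Kupffer cell markers highest among the markers, and hepatocyte and platelet markers lowest. The highest macrophage value is that of Gpnmb, dim on every control array.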

How the data were processed

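The authors read the spots with Agilent Feature Extraction 10.7.3.1 (protocol GE1_107_Sep09), per the file headers, and deposited spot intensities. The column used, the processed intensity, is background-subtracted with a spatial detrending fit recorded for each array, and no scaling across arrays is recorded there. A second deposited file, the series' value table, is on a log2 scale: its columns match the processed intensity divided by the 75th percentile of its array, with the median over arrays taken off each probe (r = 1.00 over 22415 probes), and have medians of -0.11 to 0.09.

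Control spots and outlier-flagged spots were dropped. Repeated spots were averaged on the log2 scale. Of 41174 probes, 27859 were well above background on at least 3 of 6 arrays and were kept, 0 of them saturated. Accessions in a RefSeq gene table named 26690 probes (18217 symbols), and the brightest kept probe stood for a gene. The array design is on mm9 and the gene table on GRCm38.p6, so gene positions are not given. Genotypes were compared by limma 3.58.1 (R 4.3.3) with genotype as the only term, and p-values were adjusted by Benjamini-Hochberg over 21059 genes and transcripts, with 0.05 as the threshold; the code was tested on simulated data. The number of arrays limits the precision.

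The genes, lists and tests were chosen with earlier results of these data known. Every gene of the stellate and matrix list is named, with each array's value where the unadjusted p was under 0.05, for quiescent genes and for the largest difference of a role. From other lists, up to 4 genes past the threshold, or else the 2 with the smallest p, are named. Pdgfc, Ccn2, Lhx2, Colec11, Gfap, Tagln, Bmp1, P4hb, Clec3b, Dpt, Ttr and Fgb were added after their values were seen. The alternatives were normexp correction of median spot and background signals (offset 50), scaling by quantiles, by medians or on E1A spike-in probes, the value table, no or a stricter filter on dim probes, averaging a gene's probes, blocks for replicate number and for slide, weighted arrays, a trended robust eBayes, leaving out each array, and each slide by itself.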

Additional observations from a re-analysis of the deposited data

How the results depend on the processing

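The count of 0 called genes among 29 held under the alternatives that gave a test, except 2, the filter for probes well above background on all 6 arrays (1 called, Pdgfra) and eBayes with trend and robust settings (1 called, Lum). Slide 2 alone, with 1 array against 1, gave differences but no count. The median over the 29 genes was 0.35 to 0.56 without each array in turn and 0.76 under spike-in scaling, which shifts the median of all genes by 0.33. Under that scaling the role medians were 1.14 for quiescent stellate genes, 0.72 for fibrillar collagens, 0.61 for other collagens, 1.28 for lysyl oxidases, 0.50 for glycoproteins and 0.76 for proteoglycans. Without each array in turn they were 0.75 to 0.90 for quiescent, 0.23 to 0.63 for activated, 0.27 to 0.55 for fibrillar, 0.13 to 0.40 for other collagen, 0.76 to 1.13 for lysyl oxidase, 0.088 to 0.27 for glycoprotein and 0.31 to 0.52 for proteoglycan genes. The proteoglycan median was 0.81 under quantile normalization and 0.15 within slide 2, and that of glycoproteins 0.36 within slide 2. Signs turned for Acta2 with the mean of its probes (-0.052), Thbs1 (-0.062) and Col6a2 (-0.60) within slide 2, and Sparc with the mean of its probes (-0.015) and within slide 1 (-0.069). Col14a1 turned under quantile normalization (0.086), spike-in scaling (0.30), array weights (0.16) and within slide 2 (0.13). Without each array in turn Col14a1 was -0.18 to 0.070, Sparc -0.11 to 0.22 and Bgn -0.065 to 0.34. The causes were not tested.

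Of 108 other pathway genes, 2 were called, against 0 under quantile normalization, spike-in scaling, no filter on dim probes and within slide 1, 4 with median scaling, 5 with the filter on all 6 arrays, 6 with array weights and 5 with eBayes trend and robust settings. Without each array in turn it was 0 to 2. With the replicate number as a block 4 pathway genes and 0 of the 29 were called. The same-numbered arrays' deviations from their group means correlated at 0.06, 0.17 and 0.42, so the numbers were not taken to pair the samples, and not every array correlated best with its own number. Over all genes the replicate block gave 193 higher and 98 lower against 81 and 33.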
